A study of Ovis aries with 41 samples.

Results

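The CLIC (chloride intracellular channel) family was followed in skin along the tail of Improved Jezersko–Solčava rams, with CLIC6 as the main subject. The family has 6 members in the deposited table, CLIC1 to CLIC6, of 31182 genes counted, and all 6 passed the filter on low counts in the comparison of positions. The members were selected by gene symbol. CLIC6 was in addition chosen by its measured level, because it was nearly lost at the tail tip of A/A rams. Every CLIC6 value at the A/A tip, or compared with it, is therefore given here as a description with no test. The other CLIC6 position tests come from a fit that also holds the A/A tips. The rams compared were 3 D/D rams, homozygous for the derived HOXB13 allele with an insertion in the promoter, and 4 A/A rams, homozygous for the ancestral allele. All were adult rams of one breed. The D/D rams had long tails and the A/A rams short tails, so genotype and tail length cannot be told apart in these animals. The paper holds that mid-tail and tip allow no direct comparison between genotypes, as both lie farther from the base in D/D rams. The D/D over A/A values given below for these positions carry that limit. Skin was taken at the tail base, at mid-tail and at the tip, with 2 libraries for each ram and position and a single one for the mid-tail of D/D ram 871869, which gave 17 D/D and 24 A/A libraries. Libraries of one ram and position were summed, which left 21 ram sums, and levels are given as CPM, the count of a gene relative to the total of its ram sum after TMM scaling.

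CLIC proteins are small proteins that exist both in a soluble form, with the fold of the omega class of glutathione transferases and a glutaredoxin-like active site, and in a form associated with membranes. The name comes from the anion currents they produce in membranes under some conditions, although many of their described functions concern the cortical actin network, vesicle traffic and redox reactions. CLIC6 was first described in rabbit as parchorin, a protein of water-secreting epithelia such as the choroid plexus and salivary glands, and carries a long amino-terminal extension that the shorter members lack. In mouse skin, CLIC4 is known to move to the nucleus of keratinocytes during differentiation.

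The libraries held 9177395 to 23431409 counts (median 14039720), and the ram sums held 17132063 to 37645752. HOXB13, the homeobox gene that defines the genotypes, was at 0.257 to 1.06 CPM at the tip of D/D rams and at 3.44 to 6.56 CPM at the tip of A/A rams, and was at or below 0.0441 CPM at every base. The samples held skin RNA as labelled, since the summed keratinocyte markers were at 15399 to 32425 CPM across the ram sums and no counted marker of that list was at 0. GAPDH, ACTB and B2M, used as level references, passed the test in none of the comparisons.

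The CLIC6 gene spans 59.7 kb of chromosome 1 (121386868 to 121446523 in the build ARS-UI_Ramb_v3.0) and has 1 annotated transcript. The counts were low throughout. At the tail base, CLIC6 reached 9, 4 and 111 counts in the D/D rams 871787, 871868 and 871869, and 18, 33, 8 and 126 counts in the A/A rams 835507, 871772, 871784 and 871932. At the base no library was without CLIC6 reads, in either genotype.

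In each D/D ram, CLIC6 was lower at mid-tail than at the base and lower again at the tip, where it was still counted in each animal. Ram 871787 had 0.370, 0.188 and 0.127 CPM at base, mid-tail and tip. Ram 871868 had 0.132, 0.0607 and 0.0557 CPM. Ram 871869, with 3.43, 2.29 and 0.588 CPM, was the highest of the D/D rams at every position. All 3 rams therefore followed the same order of base, mid-tail and tip, which 2.41% of the 19444 genes tested did in every D/D ram. In ram 871868 the 3 positions rested on 4, 2 and 2 counts, so that its order is within counting error.

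The mid-tail of rams 871787, 871868 and 871869 held 50.8%, 46.1% and 66.6% of the CPM at their own base, and the tip held 34.4%, 42.3% and 17.1%. The 95% exact intervals of ram 871869, which had the most counts, were 45.2 to 96.4% for the mid-tail, from a single library, and 9.46 to 29.1% for the tip. These intervals cover counting error only, and those of the other D/D rams reached past 100% at both positions. In the edgeR quasi-likelihood test with the ram as a block, the log2 fold change of the D/D tip over the base was -2.08 (SE 0.60), and CLIC6 was lower at the tip in 3 of 3 rams. The unadjusted p was 0.00314, and with Benjamini-Hochberg adjustment over all genes the difference did not pass the threshold of 0.05 (adjusted p = 0.134). In the same edgeR comparison 0.566% of genes passed, and the tip was below the base in every D/D ram for 20.6% of genes. The D/D mid-tail over the base gave -0.73 (SE 0.52, edgeR adjusted p = 0.792) and the D/D tip over the mid-tail gave -1.35 (SE 0.62, edgeR adjusted p = 1).

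A single animal carried most of the D/D signal. Ram 871869 contributed 89.5% of the CLIC6 counts at the D/D base (exact interval 82.7 to 94.3%). Without this ram the pooled counts of the D/D tip held 35.4% of the base level (9.88 to 106%, counting error only). The log2 fold change was then -1.39 with an edgeR adjusted p of 0.771. The D/D difference between tip and base passed the edgeR test with the D/D rams fitted on their own (adjusted p of 0.0288), as did 4.61% of genes. It also passed with single libraries in place of ram sums (0.0320), which counts the libraries of an animal separately, as did 5.33% of genes.

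In A/A rams, CLIC6 was lower at mid-tail than at the base, also without regard to the tip. Ram 835507 had 0.795, 0.368 and 0 CPM at base, mid-tail and tip, and ram 871772 had 1.54, 0.629 and 0 CPM. Ram 871784 had 0.247, 0.0700 and 0 CPM. Ram 871932, with 5.10, 0.342 and 0.0413 CPM, had the highest base level of all 7 rams and the only read counted at an A/A tip. All 4 A/A rams had less CLIC6 at mid-tail than at the base, an order that 6.39% of genes showed in every A/A ram.

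The mid-tail of A/A rams 835507, 871772, 871784 and 871932 held 46.3%, 40.9%, 28.4% and 6.71% of the CPM at their own base. The log2 fold change of mid-tail over base was -2.09 (SE 0.46, lower in 4 of 4 rams). This comparison does not set the tip against another position. The A/A tips were nevertheless part of the same fit, through its ram terms and its estimate of the spread. It also shares its base libraries with the contrast that chose CLIC6, so its p is not free of the values behind that choice. The unadjusted p was 0.000326 and the edgeR adjusted p was 0.150, and 0.0257% of genes passed in this comparison. The size depended on ram 871932, whose share was the lowest (interval 3.27 to 12.4%). Without it the log2 fold change was -1.27, with an edgeR adjusted p of 0.729. With DESeq2 the A/A mid-tail passed the test (adjusted p of 0.0336), as did 0.751% of genes. With single libraries, which counts the libraries of an animal separately, it passed in edgeR (adjusted p of 0.00716), as did 2.28% of genes.

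**Figure D1:**
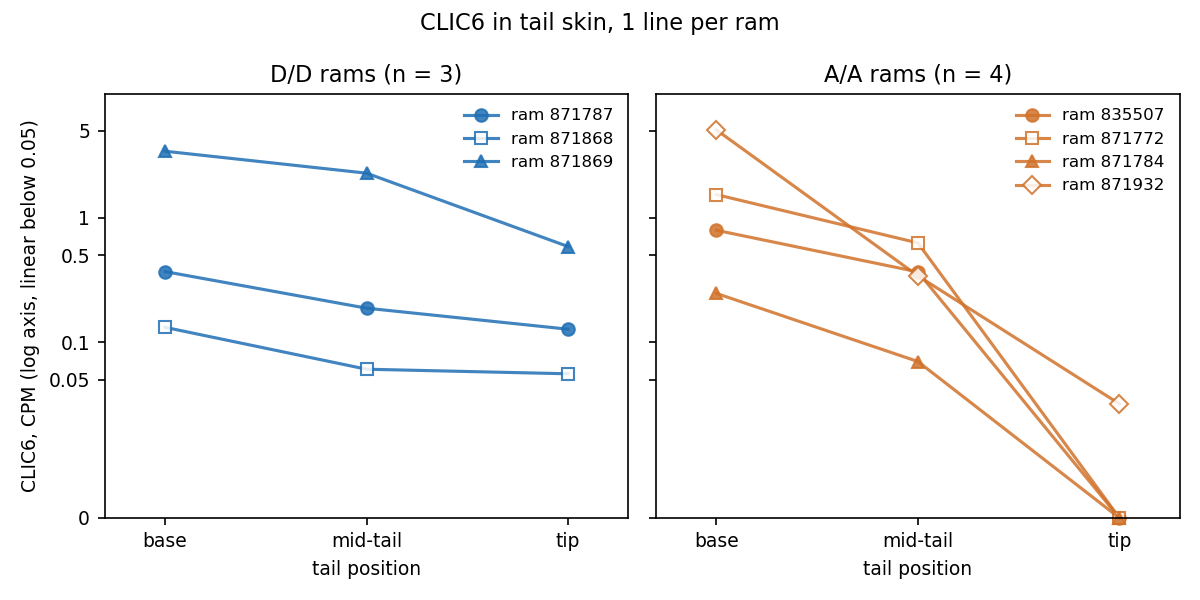
CLIC6 level (CPM, y axis, on a log scale that turns linear near 0) at base, mid-tail and tip, with a line for each ram, D/D rams on the left and A/A rams on the right. Every line falls from left to right, the spread between rams at the base is wide in both genotypes, and the A/A lines end at 0 to 0.0413 CPM while the D/D lines end at 0.0557 to 0.588 CPM.

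At the tip, the position by which CLIC6 was chosen, D/D rams had 3, 2 and 16 counts and A/A rams had 0, 0, 0 and 1 count. In the D/D tip 2 of 6 libraries were without CLIC6 reads, and in the A/A tip 7 of 8 were. The pooled counts of the A/A tip held 0.461% of the A/A base level (0.0116 to 2.60%, counting error only). Ram 871932 gave 68.1% of the A/A base counts, and without it the interval was 0 to 5.22%. The log2 fold change fitted with all A/A rams was -7.01, a value that depends on the small count added to zeros. A floor of 3 counts for each ram sum corresponds to 0.0830 to 0.124 CPM at the A/A tip. The base CPM was 7.99 times that floor in ram 835507, 18.5 times in ram 871772 and 2.32 times in ram 871784. These ratios leave out the counting error of the base. The exact intervals of the tip reached up to 17.1%, 7.02% and 67.3% of the base level in these rams. The levels of 2 of the D/D tips, 0.127 and 0.0557 CPM, correspond to 3 and 2 counts and so lie at or under the same floor, and at the tip the separation of D/D ram 871868 from A/A ram 871932 rested on 2 counts against 1.

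For the A/A tip over the base 1.63% of genes passed the edgeR threshold. Since this contrast was used to choose CLIC6, no test of CLIC6 is given for it, and none of CLIC1 to CLIC5 passed. Likewise, base over mid-tail over tip in every ram of both genotypes was found in 17 genes, or 0.0874%, and CLIC6 is one of them through the same choice. The others with a gene symbol were CFAP251, CUX1, IGF2BP2, K38, MYL10, NRK, OMG, RHNO1, RHOU, SNX5, STUM and TTN. None of CLIC1 to CLIC5 showed this order in both genotypes, or in the D/D rams alone.

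Ordered by group mean, CLIC6 was highest at the A/A base (1.92 ± 2.18 CPM, SD, n = 4), followed by the D/D base (1.31 ± 1.84, n = 3) and the D/D mid-tail (0.845 ± 1.25, n = 3). The A/A mid-tail (0.352 ± 0.229, n = 4), the D/D tip (0.257 ± 0.289, n = 3) and the A/A tip (0.0103 ± 0.0206, n = 4) followed. In this order each group overlapped with the next between rams, apart from the D/D tip and the A/A tip. CLIC6 was chosen by the A/A tip, so that separation is a description only, and it rested on 2 counts against 1. Of the genes fitted at the tip, which leave out CLIC6, 8.41% had every D/D ram above every A/A ram. Within one group the rams differed by up to 37.7-fold (D/D mid-tail).

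Between genotypes, the CLIC6 difference at base and mid-tail did not exceed the spread between rams. At the base the log2 fold change of D/D over A/A was -0.54 (SE 1.08, edgeR adjusted p = 1.0), and it changed sign, to 0.65, without A/A ram 871932. At mid-tail it was 1.21 (SE 1.03, edgeR adjusted p = 0.885), and it changed sign, to -1.52, without D/D ram 871869 and, to -0.03, with limma-voom. The mid-tail change from the base differed between D/D and A/A rams by 1.36 (SE 0.70, unadjusted p = 0.0710, edgeR adjusted p = 0.884), and 0% of genes passed in this test of the difference. At the tip CLIC6 was below the filter of the genotype comparison and was not fitted.

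In bulk skin, fewer cells that make CLIC6 and less CLIC6 RNA in each cell cannot be told apart. Some marker sums moved with position. The 11 fibroblast markers summed to 7193 to 15207 CPM at the D/D tip against 12946 to 19395 CPM at the D/D base, and to 6055 to 14899 CPM at the A/A tip against 15067 to 22946 CPM at the A/A base, with no marker at 0. The 8 melanocyte markers had negative log2 fold changes of tip over base in both genotypes, with a median of -1.33 in D/D rams and -1.27 in A/A rams, and summed to 66.1 to 77.4 CPM at the D/D tip against 75.5 to 249.6 CPM at the D/D base. At the A/A tip they summed to 68.3 to 135.8 CPM against 89.1 to 133.1 CPM at the A/A base. The 11 counted keratinocyte markers went the other way. They summed to 24052.1 to 31421.8 CPM at the D/D tip against 17108.8 to 23482.5 CPM at the D/D base. At the A/A tip they summed to 21789.4 to 32424.8 CPM against 15398.7 to 26203.8 CPM at the A/A base. Their median log2 fold change was 0.36 at the D/D tip and 0.32 at the A/A tip. Among single genes, 7.56% had every D/D tip above every D/D base. Immune and Schwann cell sums were lower at the tip than at the base in D/D rams. Among single genes, 20.6% had the tip below the base in every D/D ram. Immune markers were at 60.4 to 80.8 CPM at the D/D tip against 92.3 to 140.1 CPM at the D/D base, and Schwann cell markers at 82.3 to 111.0 CPM against 132.4 to 166.4 CPM. In A/A rams both overlapped between tip and base, at 80.5 to 155.6 CPM against 100.6 to 173.8 CPM for immune markers and 83.3 to 178.9 CPM against 99.9 to 146.4 CPM for Schwann cell markers. CD68 was at 0 throughout, and no other immune marker and no melanocyte or Schwann cell marker was. The 7 adipocyte markers had a median log2 fold change of -2.35 at the D/D tip and -0.36 at the A/A tip over the base, although their sums overlapped between tip and base in both genotypes. The 13 counted wool follicle markers had a median of 0.15 at the D/D tip, with 4 negative, and of -0.80 at the A/A tip, with all 13 negative. The sum of 11 counted sweat gland markers, an epithelium that secretes fluid, was 720 to 899 CPM at the D/D tip against 840 to 973 CPM at the D/D base, and 645 to 833 CPM at the A/A tip against 817 to 941 CPM at the A/A base. Of these markers 4 had positive and 7 had negative log2 fold changes at the D/D tip (median -0.13), and 6 had positive and 5 negative ones at the A/A tip (median 0.19). No sweat gland marker was at 0 at the A/A tip. The part of any of these cell types in the CLIC6 levels was not tested.

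CLIC1 to CLIC5 were counted in every library and passed the test in no comparison. Over the 9 comparisons of positions and genotypes, log2 fold changes ran between -0.39 and 0.41 with SE of 0.12 to 0.40, with edgeR adjusted p values of 0.458 to 1 for the 5 genes. The count was 0 with edgeR, with DESeq2 and with limma-voom. An unadjusted p under 0.05 was found for CLIC1 and CLIC3 in one comparison only, D/D over A/A at the tip. The median log2 fold change of the 5 members was -0.03 for the D/D tip over the base (all genes, -0.01) and -0.03 for the A/A tip over the base (all genes, -0.01).

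**Figure D2:**
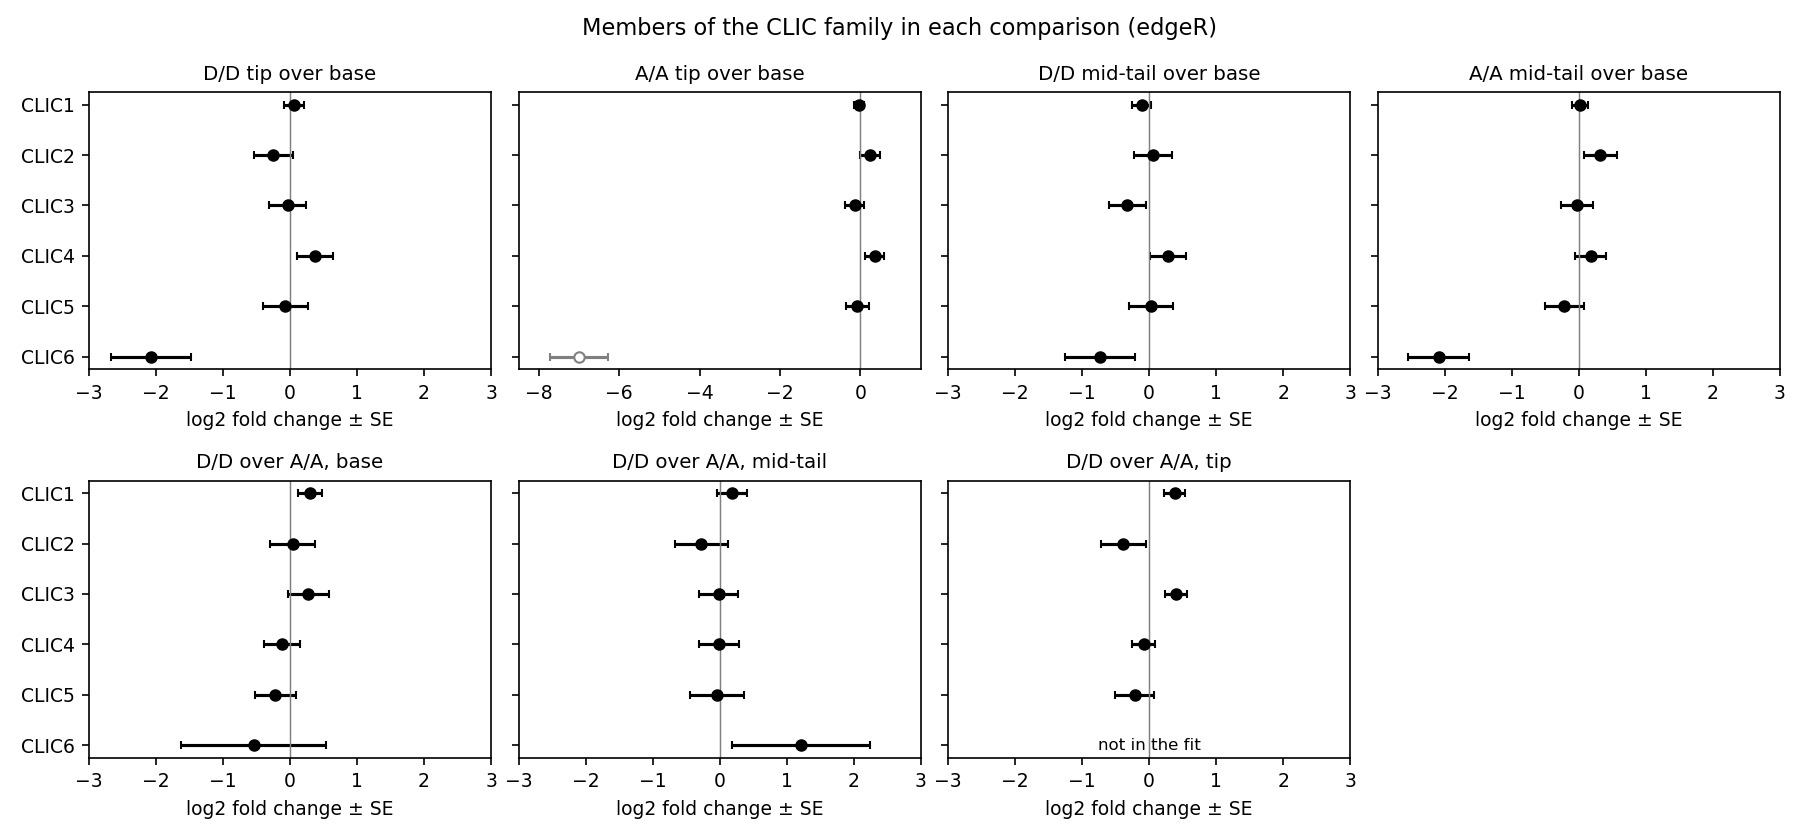
Log2 fold change (x axis) with its SE for each CLIC member (rows) in the comparisons of tip and of mid-tail with base in each genotype, and of D/D with A/A at each position. CLIC1 to CLIC5 lie within 0.41 of 0 in every panel, CLIC6 lies at -2.08 for the D/D tip over the base, and the hollow grey CLIC6 symbol marks the A/A tip, which chose the gene and is shown as a description in a panel with its own, wider x axis.

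CLIC1, on chromosome 20 (26657815 to 26663163), is a widely expressed member with glutathione-dependent redox activity in vitro. Its tip levels were 177, 155 and 164 CPM in D/D rams and 102, 124, 128 and 150 CPM in A/A rams. The groups did not overlap at the tip, with every D/D ram above every A/A ram, as for 8.41% of genes. The log2 fold change of D/D over A/A was 0.38 (SE 0.15, unadjusted p = 0.0371), and edgeR gave an adjusted p of 0.458. At the base CLIC1 was at 169, 157 and 149 CPM in D/D rams, against 112, 115, 134 and 152 CPM in A/A rams, and at mid-tail at 133, 144 and 163 CPM in D/D rams, against 114, 138, 106 and 166 CPM in A/A rams. The genotypes overlapped at both of these positions.

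CLIC3, on chromosome 3 (911500 to 916058), has been linked in human cancer cells to integrin recycling and, as a secreted oxidoreductase, to the activation of the cross-linking enzyme TGM2. At the tip it was at 48.0, 35.4 and 45.7 CPM in D/D rams and at 25.8, 33.5, 35.1 and 35.0 CPM in A/A rams. The groups did not overlap, although the lowest D/D ram and the highest A/A ram were nearly equal. The log2 fold change was 0.41 (SE 0.16, unadjusted p = 0.0364) and edgeR gave an adjusted p of 0.458. At the tip 10.2% of genes had an unadjusted p under 0.05, 8.41% had every D/D ram above every A/A ram and 6.64% had every D/D ram below, so that such separation at the tip was frequent across all genes. No gene passed after adjustment (0%). The 13 counted wool follicle markers summed to 18700 to 35757 CPM at the D/D tip and 1189 to 20598 CPM at the A/A tip, with none at 0, and their part in the CLIC1 and CLIC3 values was not tested.

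At the base and mid-tail no CLIC member separated the genotypes. Among all genes, every D/D ram was above every A/A ram for 1.97% at the base and 3.83% at mid-tail, and below for 2.72% and 4.23%. CLIC3 at the base was at 45.4, 53.9 and 33.8 CPM in D/D rams, against 29.7, 21.8, 38.2 and 56.9 CPM in A/A rams. A/A ram 871932 there exceeded every D/D ram.

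CLIC4, on chromosome 2 (241857226 to 241939051), acts in mouse in endothelial tube formation and in keratinocyte differentiation. At the tip CLIC4 was at 354, 406 and 350 CPM in D/D rams, against 262, 255 and 346 CPM at the base of the same animals. All 3 D/D tips lay above all 3 D/D bases, as for 7.56% of genes, and in ram 871869 the values at tip and base were nearly equal. The log2 fold change was 0.37 (SE 0.26, edgeR adjusted p = 0.617). In A/A rams CLIC4 was at 478, 345, 344 and 386 CPM at the tip, against 309, 430, 321 and 181 CPM at the base, which gave 0.36 (SE 0.23, edgeR adjusted p = 0.523, higher in 3 of 4 rams). The difference between the genotypes in this change was 0.01 (SE 0.35, edgeR adjusted p = 0.996).

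CLIC5, on chromosome 20 (19139286 to 19305407), was found in human placenta bound to actin and ezrin and is needed for the stereocilia of inner ear hair cells in mouse. It ranged between 3.93 and 6.92 CPM over the D/D ram sums and between 3.18 and 10.1 CPM over the A/A ram sums. CLIC2, on the X chromosome (81800202 to 81825083), inhibits ryanodine receptor channels. It ranged between 5.55 and 13.0 CPM in D/D rams and between 5.54 and 25.3 CPM in A/A rams, where ram 835507 had the highest level at each position. Neither gene separated positions or genotypes.

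**Figure D3:**
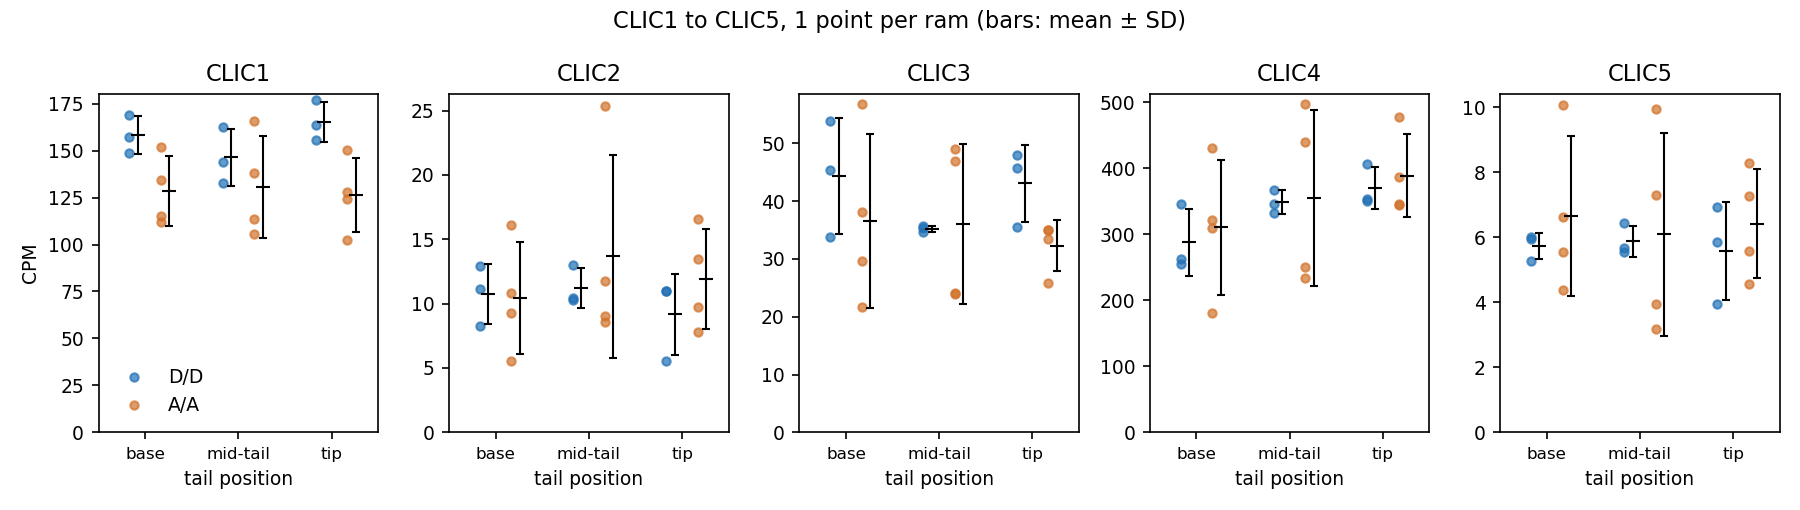
Levels of CLIC1 to CLIC5 (CPM, y axis, one panel per gene with its own scale) at base, mid-tail and tip, with 1 point per ram, D/D rams to the left of A/A rams at each position, and bars for the group mean and SD. The D/D and A/A rams are apart at the tip for CLIC1 and CLIC3 and overlap in the other panels and positions, and the D/D tips lie above the D/D bases for CLIC4.

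Members varied together across the samples, in 2 opposed directions. Over the 21 ram sums (log2 of CPM + 0.5), CLIC3 ran opposite to CLIC4 (Pearson r = -0.836) and to CLIC5 (-0.746), whereas CLIC1 ran with CLIC3 (0.804) and CLIC4 with CLIC5 (0.723). CLIC6 followed none of them, with r between -0.39 and 0.185. The ram sums share animals and positions, so these values describe the 21 points only.

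The same opposition appeared between the libraries of one animal and position. In 20 pairs of libraries from the same ram and position, CLIC3 and CLIC4 moved in opposite directions in 17 and in the same direction in 3, and 3.02% of 15738 genes opposed CLIC3 at least as often. At the base of A/A ram 871772, CLIC3 had 104 counts in one library and 363 in the other, while CLIC4 had 6573 and 2650. This was a 4.00-fold difference in CLIC3 after scaling within one animal and position. At the mid-tail of A/A ram 871784, CLIC3 had 551 and 135 counts and CLIC4 had 5266 and 8944. The ratio of CLIC3 to CLIC4 between the libraries of a pair had a correlation of -0.276 with the ratio of their total counts. CLIC1 moved with CLIC3 in 16 of the 20 pairs. Median differences between paired libraries ran from 1.11-fold for CLIC1 to 1.32-fold for CLIC2.

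**Figure D4:**
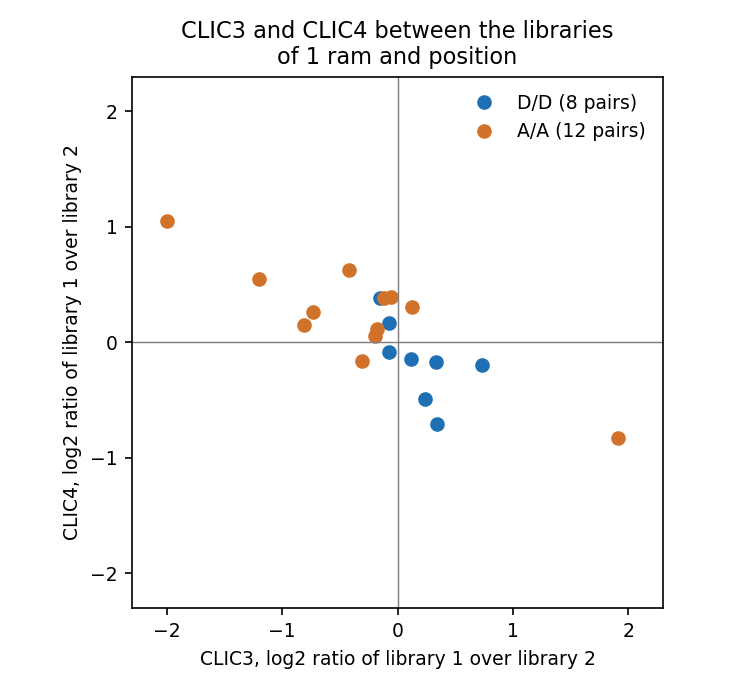
Difference between the libraries of one ram and position (log2 ratio) for CLIC3 (x axis) and CLIC4 (y axis), with 1 point for each of 20 pairs, D/D and A/A pairs in separate colours. In 17 pairs the points lie in the quadrants where the genes move in opposite directions.

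The genes whose levels were most like CLIC6 over the 21 ram sums, among 12926 with a symbol and a mean of at least 1 CPM, were TSPAN5 (r = 0.758), a tetraspanin that accompanies ADAM10, HMGB2 (0.732), a chromatin protein of proliferating cells, INSYN2A (0.710) and HTRA3 (0.699), a secreted serine protease. ZNF18, ZWINT, WDR73, DNAL4, PSMC3IP and PREB completed the first 10, down to 0.669. With a pseudocount of 0.1 the list shared 7 of 10 genes with this one. With levels centred within each ram it shared 1, TSPAN5 (r = 0.882), and the highest was then OMG (0.885), so most of the list did not recur when differences between rams were removed.

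For the other members the likeness was closer. CLIC3 was followed by USP20 (0.949), HIP1R, TNK2, DDR1 and KLC3 (0.941), and CLIC4 by PIAS2 (0.951), WWTR1, QKI, ACAP2 and ETNK1 (0.933). CLIC1 was closest to BCAS4 (0.895), with NDUFV3, NAA80, MYG1 and PFN1 after it. CLIC2 was closest to BCL2A1 (0.915), an apoptosis regulator of blood cells, with CREG1, ACKR4, ARHGAP15 and NFIA after it. CLIC5 was closest to USP31 (0.896), followed by UGP2, ACAD11, HEATR5A and RFX3.

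Of the nearest genes with a symbol on each side of CLIC6 on chromosome 1, none that was tested passed at either tip. Genes without a symbol were left out. RCAN1, an inhibitor of calcineurin and the first gene with a symbol on the side of higher coordinates, had a log2 fold change of -0.11 at the D/D tip over the base (SE 0.29) and of 0.23 at the A/A tip (SE 0.25). KCNE1, a potassium channel subunit beyond it, had -0.10 in D/D rams and -0.25 in A/A rams. On the other side, TBX19, SFT2D2 and TIPRL had values of 0.24 to 0.88 in D/D rams and of 0.22 to 0.31 in A/A rams. TBX19, the closest of them, ends at 120679205, far from the start of CLIC6 at 121386868. These 5 genes were tested with edgeR, and SMIM34, the third on the side of higher coordinates, had too few counts to be tested.

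None of the listed chloride channels and transporters that were tested passed along the tail. Of 47 chloride channels and transporters listed, 46 were counted and 38 to 39 tested, and the count past the edgeR threshold was 0 in each comparison. Their median log2 fold change was 0.09 at the D/D tip over the base and 0.06 at the A/A tip over the base, against -0.01 for all genes. The values nearest the threshold were those of SLC26A4, the anion exchanger pendrin, at 3.25 in D/D rams (SE 1.05, edgeR adjusted p = 0.183) and 2.81 in A/A rams (SE 0.83, edgeR adjusted p = 0.105). CLCA2, a regulator of chloride conductance in stratified epithelia, was at 0.54 in D/D rams and 0.64 in A/A rams.

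Of 30 genes of the glutathione transferase fold and the glutaredoxin and thioredoxin families, 20 were counted and 19 tested. One rose at the A/A tip, GSTA1, an alpha-class glutathione transferase, to 38.5 ± 16.7 CPM against 17.4 ± 5.44 CPM at the A/A base (SD, n = 4 each). The log2 fold change was 1.08 (SE 0.21, edgeR adjusted p = 0.0176), with 1.63% of genes called in this comparison. In D/D rams GSTA1 was at 36.1 ± 28.4 CPM at the tip and 22.2 ± 12.2 CPM at the base (0.58, SE 0.24, edgeR adjusted p = 0.320), and the change of D/D rams minus that of A/A rams was -0.50 (SE 0.31, edgeR adjusted p = 0.793). The A/A call was lost without ram 871772, 871784 or 871932 (adjusted p of 0.0513, 0.0546 and 0.0950) and without the ram as a block (0.793), and reads of related alpha-class copies may be split between genes. The median of the 19 genes was 0.05 at the D/D tip and -0.01 at the A/A tip.

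Of 41 membrane and cytoskeleton partners of CLIC proteins listed, 38 were counted, and all of these were tested between positions and 35 to 36 between genotypes. With edgeR 0 passed in any comparison. At an unadjusted p under 0.05 there were 5 of 38 at the D/D tip and 4 of 38 at the A/A tip over the base, where 12.3% and 14.4% of all genes were, and the median log2 fold change was 0.03 at the D/D tip and -0.05 at the A/A tip. ACVRL1, an endothelial receptor of the BMP family, was at 10.4 ± 2.05 CPM at the D/D tip against 19.9 ± 3.93 CPM at the D/D base (SD, n = 3 each). A/A rams had 11.1 ± 1.20 CPM of ACVRL1 at the tip against 20.2 ± 5.99 CPM at the base (n = 4 each). The edgeR adjusted p values of 0.116 in D/D rams and 0.0778 in A/A rams missed the threshold. EZR, RDX and MSN, the linkers of actin to the membrane that bind CLIC proteins, were in this list and did not pass either.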

How the data were processed

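RNA of tail skin was sequenced by the authors with the CorALL kit after selection with oligo(dT) beads. Reads were checked with FastQC 0.11.9, and ContextMap with BWA placed them on the ARS-UI_Ramb_v3.0 assembly. Reads were assigned to RefSeq genes by featureCounts in its strand-specific mode. The deposited values are raw counts, not normalised. In the working list of units the deposited tip columns are called estimated counts only because their column names contain a word that automatic unit checks take for a genomic coordinate. They are whole counts like the others, and rounding changed nothing. There were 0 columns left out.

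Counts were summed per ram and position and tested with edgeR 4.0.16 (R 4.3.3, limma 3.58.1), by quasi-likelihood tests with TMM, filterByExpr and Benjamini-Hochberg adjustment over all genes tested. Positions were compared in a single fit of 21 ram sums with the ram as a block (19444 genes), because the same animals gave all positions. Ram sums of one ram deviated together, with a correlation over 0.1 in 20 of 21 pairs of ram sums (median 0.473, lowest 0.0539). Genotypes were compared on 7 ram sums at each position (17738, 17996 and 17842 genes at base, mid-tail and tip). A gene was called at an adjusted p under 0.05. SE was the log2 fold change divided by the square root of F. Correlations used log2(CPM + 0.5). Percentages of the base level have exact 95% intervals for the 2 counts, and a floor of 3 counts was used where a ram had none. Counting error depends on total counts, which set the precision of CLIC6. The scripts were tested on simulated data.

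Members and lists were chosen with earlier results of these data known. Named genes were all CLIC members, the most similar genes (10 for CLIC6, 5 for each other member), 3 neighbours with a symbol on each side of CLIC6, from the gene lists those of smallest p, HOXB13, and level references, not all of which are reported here. EZR, RDX and MSN, and the genes that share the order of CLIC6 along the tail, are named outside that rule. Alternatives were DESeq2 1.42.0, limma-voom, RLE or library totals, other filters, no block, single libraries, the library number as block, each genotype alone, and leaving out each ram. RefSeq entries were found for 28742 of 31182 genes.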

Additional observations from a re-analysis of the deposited data

Results flagged for a closer look

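CLIC6 at the A/A tip stood out through 1 ram. Ram 871932 was at 0.0413 CPM, a single count, and the other A/A rams were at 0, so that the gap from its nearest neighbour was the whole range of the group. For CLIC3 at the A/A tip the lowest ram, 835507, stood apart at 25.8 CPM, while the other A/A rams were at 33.5, 35.0 and 35.1 CPM. The same ram had the lowest summed wool follicle markers at the A/A tip (1189 CPM, in a range up to 20598 CPM), whose part in the CLIC3 value was not tested. Chance marks about 1 in 20 groups of this size for a continuous measure, and each gene was examined in 3 A/A groups. For CLIC6, where 1 count stands against 0, the mark carries no such rate.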

How the results depend on the processing

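Over 17 alternative settings, CLIC1 to CLIC5 passed in none. The number of CLIC members past the threshold was 1 at the A/A tip over the base and 0 in the other comparisons, and 1 to 1 and 0 to 0 without each ram in turn. The member counted with the A/A tip is CLIC6, which was chosen by those values, so neither that count nor its range is a test. With DESeq2 and with single libraries the number was 1 for the A/A mid-tail over the base, where 0.751% and 2.28% of all genes then passed (0.0257% with the ram sums in edgeR). It was also 1 for the A/A tip over the mid-tail, where 0.139% and 0.197% of all genes passed. That member is again CLIC6 at the A/A tip, so this count is not a test either. The member counted at the A/A mid-tail over the base is CLIC6 as well. That comparison shares its base libraries with the contrast that chose CLIC6, so its count is not free of that choice. The number was 1 for the D/D tip over the base with single libraries and with each genotype fitted alone, where 5.33% and 4.61% of all genes passed, against 0.566%. Without the ram as a block it was 0 at the A/A tip over the base, and the CLIC6 change was then -2.37 at the D/D tip (adjusted p = 0.932) and -2.44 at the A/A mid-tail (adjusted p = 0.999). The cause of these differences was not tested.

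Leaving out each ram in turn gave CLIC6 values of -2.25 to -1.39 for the D/D tip over the base, -2.53 to -1.27 for the A/A mid-tail over the base, -1.59 to -0.37 for the D/D tip over the mid-tail and 0.54 to 1.81 for the difference between genotypes in the mid-tail change. D/D over A/A at the base ran from -2.94 to 0.65, with the change of sign without ram 871932. At mid-tail it ran from -1.52, without ram 871869, to 1.80 in the 5 fits in which CLIC6 passed the filter (it did not in 3 of the other 10 settings), and was -0.0300 with limma-voom. CLIC5 at the base, D/D over A/A, ran from -0.36 to 0.052, with the change of sign without ram 871772. CLIC1 and CLIC3 at the tip, D/D over A/A, kept their sign (0.29 to 0.47 and 0.30 to 0.53). The GSTA1 call was also lost with the library number as block (adjusted p = 0.127) and with each genotype alone (0.0708), a setting that gives no difference between genotypes in a change. Depth limits CLIC6, since 2 of 3 D/D tips had 3 counts or fewer.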

Other observations

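CLIC3 and CLIC4 differ in genomic length, 4.56 kb and 81.8 kb. Among 15737 other genes, the 555 that moved in the same direction as CLIC3 in at least 17 of the 20 library pairs had a median genomic span of 13.0 kb, and the 476 that moved in the opposite direction as often had a median of 85.3 kb, with a median of 23.1 kb over all genes. This was examined after the opposition of CLIC3 and CLIC4 had been seen, and no test was made.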
